A study of Mus musculus with 4 samples.

Results

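Chains of closely spaced H3K9me3 islands were described in CD8+ T cells after 3 days of activation, together with the state of the same stretches of genome in naive cells. An island is a region that passed the authors' threshold for enrichment of the mark. Neighbouring day 3 islands on chromosomes 1 to 19 were joined where the distance between them was at most 10 kb, and a chain was a run of at least 5 joined islands. This gave 836 chains that hold 5334 of the 47545 autosomal day 3 islands, or 11.2% (95% Wilson interval 10.9 to 11.5%). The members were chosen from their spacing on day 3, so the density of day 3 islands inside the chains is a consequence of the rule and is given as a description only.

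The study mapped H3K9me3 by native ChIP-seq, in which uncrosslinked chromatin is cut with micrococcal nuclease before immunoprecipitation. The groups were activated cells on day 3, grown for that time with anti-CD3, anti-CD28 and interleukin-2, and naive cells on day 0; both came from wild-type C57BL/6 mice and were precipitated with the same anti-H3K9me3 antibody. Each day had 1 ChIP library, and the 2 input libraries were not analysed here. No difference between the days therefore has a replicate check, and no test was made.

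The islands on the autosomes held 10416275 reads on day 3 and 3400431 reads on day 0. The median density was 55.2 reads per kb in chain islands and 34.7 reads per kb in the day 0 islands that touch a chain span. The labels' protocols put each library at about 100000000 paired-end reads on both days, and the number mapped or kept was not analysed here. The counts in islands are not scaled for depth. A stretch without an island did not pass the threshold on that day, which is not a measure of absence of the mark. Islands of a chromatin mark do not measure expression, so the labelled cell type was not checked against marker genes. Whether reads could be placed in the distances between islands was not tested.

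H3K9me3 is a histone modification of heterochromatin. It is laid down by SUV39H and SETDB1 methyltransferases, is bound by HP1 proteins, and is known for keeping repeats, transposable elements and genes of other lineages silent. In CD8+ T cells the SUV39H1 enzyme is known to take part in silencing genes of the naive and memory programme during effector differentiation. Promoters rich in CG dinucleotides are usually unmethylated and carry marks of active or poised chromatin in place of H3K9me3.

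Of the 4498 distances between islands of a chain, 131 held a listed protein-coding gene start. Gene starts therefore describe few of these distances. The 6 promoters printed here are examples of starts inside an island and of starts in the distance between 2 islands. They were chosen after their values were seen. Each sequence runs from 250 bases before to 50 bases after the start in the RefSeq tables for GRCm38.p6, the assembly that mm10 names. Coordinates count from 1. Each sequence reads 5′ to 3′ on the gene's strand, with every CG dinucleotide in capitals (CG reads the same on both strands).
Rag2: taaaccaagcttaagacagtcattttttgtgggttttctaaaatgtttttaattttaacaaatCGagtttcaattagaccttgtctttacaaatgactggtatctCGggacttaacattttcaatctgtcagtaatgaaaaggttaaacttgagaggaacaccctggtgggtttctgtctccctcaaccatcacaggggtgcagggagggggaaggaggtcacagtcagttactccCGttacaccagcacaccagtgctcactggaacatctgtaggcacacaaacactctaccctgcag
Mef2c: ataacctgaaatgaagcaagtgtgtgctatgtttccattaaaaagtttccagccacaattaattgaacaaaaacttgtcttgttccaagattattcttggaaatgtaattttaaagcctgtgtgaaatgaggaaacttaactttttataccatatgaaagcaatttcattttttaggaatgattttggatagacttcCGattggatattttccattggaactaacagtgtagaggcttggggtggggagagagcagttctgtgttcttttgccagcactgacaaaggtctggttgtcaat
Calcrl: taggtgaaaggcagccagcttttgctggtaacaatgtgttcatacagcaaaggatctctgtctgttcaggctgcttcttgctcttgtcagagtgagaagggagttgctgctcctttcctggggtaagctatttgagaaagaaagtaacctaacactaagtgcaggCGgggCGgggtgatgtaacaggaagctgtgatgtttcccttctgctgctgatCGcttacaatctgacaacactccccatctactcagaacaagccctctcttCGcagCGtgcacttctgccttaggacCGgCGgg
Herpud2: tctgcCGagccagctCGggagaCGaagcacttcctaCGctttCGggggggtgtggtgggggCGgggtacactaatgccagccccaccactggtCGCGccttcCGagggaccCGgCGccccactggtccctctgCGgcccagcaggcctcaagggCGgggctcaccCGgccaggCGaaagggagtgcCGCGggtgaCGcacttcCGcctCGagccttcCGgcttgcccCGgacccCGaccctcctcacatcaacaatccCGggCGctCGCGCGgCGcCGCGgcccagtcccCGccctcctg
Ube3a: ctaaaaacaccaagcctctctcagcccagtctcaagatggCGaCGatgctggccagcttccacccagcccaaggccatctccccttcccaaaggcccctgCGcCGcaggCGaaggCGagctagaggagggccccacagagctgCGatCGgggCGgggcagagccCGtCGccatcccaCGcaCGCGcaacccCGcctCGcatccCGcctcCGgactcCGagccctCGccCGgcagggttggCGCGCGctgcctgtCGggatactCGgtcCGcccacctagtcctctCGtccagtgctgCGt
Rc3h2: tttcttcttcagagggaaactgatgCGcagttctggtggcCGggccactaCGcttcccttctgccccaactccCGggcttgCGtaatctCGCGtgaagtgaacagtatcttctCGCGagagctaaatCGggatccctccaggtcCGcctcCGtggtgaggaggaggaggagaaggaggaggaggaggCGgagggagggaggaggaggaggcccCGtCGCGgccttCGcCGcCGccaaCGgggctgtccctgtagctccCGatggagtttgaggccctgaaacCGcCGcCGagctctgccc
The Rag2, Mef2c and Calcrl starts lay inside day 3 islands, and the 300 bases held 3, 1 and 7 CG in that order. Rag2 encodes a subunit of the recombinase that assembles antigen receptor genes (chr2:101624462-101624761, + strand), and its start lay in a 7.80 kb island with 451 reads. Mef2c, a MADS-box transcription factor, has several starts, and the one shown (chr13:83503784-83504083, + strand) lay in a 5.80 kb island with 308 reads. Calcrl, the receptor for calcitonin gene-related peptide (chr2:84425217-84425516, - strand), started in a 9.20 kb island with 503 reads. The Herpud2, Ube3a and Rc3h2 starts lay between 2 islands, and the same length held 32, 29 and 24 CG. Herpud2, a relative of a protein of endoplasmic reticulum stress (chr9:25151732-25152031, - strand), started in a distance of 1.80 kb between 2 islands. Ube3a, a ubiquitin ligase whose paternal copy is silent in neurons (chr7:59228500-59228799, + strand), started in a distance of 1.40 kb, and 101 of its 300 bases lay in the island next to it. Rc3h2, which encodes the mRNA decay factor Roquin-2 (chr2:37422854-37423153, - strand), started in a distance of 8.0 kb. None of the 6 starts lay in a day 0 island.

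In the chain spans as a whole, gene starts were sparse inside islands and frequent between them. The promoter table gave 20085 starts for 16457 autosomal protein-coding genes, which is 79.6% of those genes and 526 of the 644 whose bodies touch a chain. Of the 254 starts inside a span, 182 lay between islands, or 71.7% (95% Wilson interval 65.8 to 76.8%). The distances between islands made up 40.5% of the span bases. Density was 2.76 starts per Mb in chain islands, 10.2 per Mb between chain islands and 8.16 per Mb over all autosomes. A low density of starts was not particular to chains, since the other day 3 islands held 2.32 starts per Mb. Over all autosomes, 2.35% of the protein-coding starts lay in a day 3 island.

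The starts on either side of an island border also differed in sequence. The median start in a chain island had 3 CG in 300 bases and 43.0% G and C. Between islands the median start had 22 CG and 62.0% G and C, and the median over all starts was 14 CG and 57.0% G and C. Of the 72 starts in chain islands, 17 held at least 10 CG, or 23.6%. Of the 182 between islands, 130 did, or 71.4%, and the share over all 20085 starts was 57.9%. Read the other way, 11.6% of the CG-richer starts in a span lay in an island (17 of 147, 95% Wilson interval 7.35 to 17.7%), and 51.4% of the CG-poorer ones did (55 of 107, interval 42.1 to 60.7%). Few CG at a start inside an island was not particular to chains. The 400 starts in other day 3 islands had medians of 3 CG and 41.3% G and C, and 20% of them held at least 10 CG. Starts of neighbouring genes and several starts of 1 gene share sequence, and the sequence of the islands themselves was not analysed here.

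**Figure D1:**
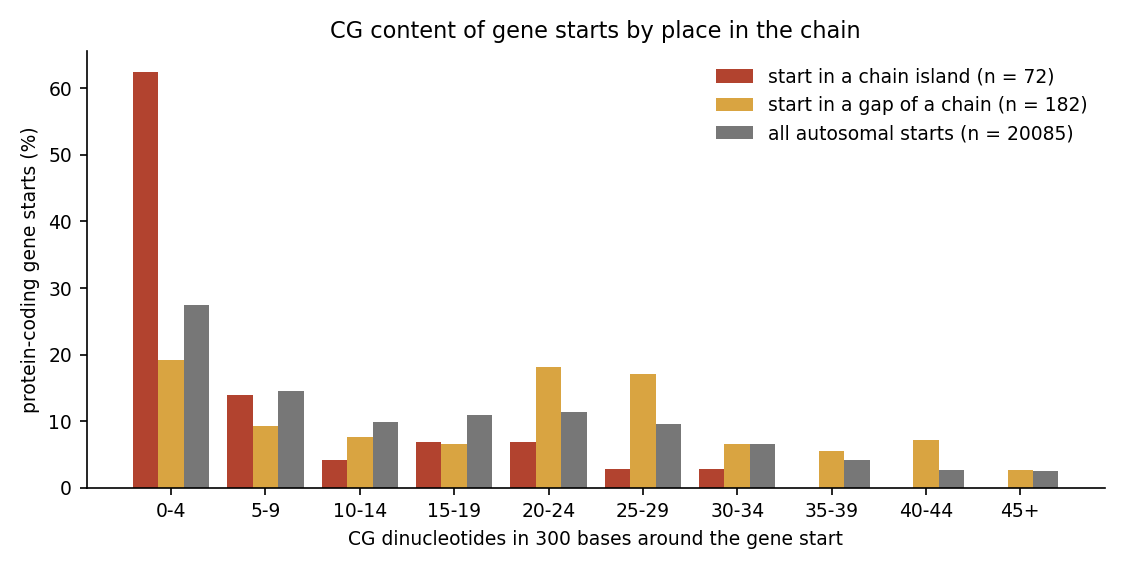
Share of protein-coding gene starts (%) by the number of CG dinucleotides in the 300 bases around the start, for the 72 starts in chain islands, the 182 starts between islands of a chain and all 20085 autosomal starts. In chain islands 62.5% of the starts held 0 to 4 CG, against 19.2% between islands and 27.5% of all starts.

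Starts between islands were mostly clear of the island borders. The median such start lay 995 bp from the nearest island, with quartiles of 544 and 1884 bp. For 169 of the 182, or 92.9%, no base of the 300 lay in an island. A distance that held a start had a median length of 5.20 kb (131 distances), against 3.20 kb for the 4367 distances without one. A longer distance has more room for a start, so these lengths are a description only. On day 0, 14 of the 72 starts in chain islands lay in a day 0 island (19.4%), and 7 of the 182 starts between islands did (3.85%), beside 1.68% of all starts. Of the 400 starts in other day 3 islands, 48 did (12%). Day 0 islands covered 15.7% of all bases of chain islands and 9.10% of the bases between them.

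CG-rich starts that did lie in a chain island included those of Usp37, a deubiquitinase with 31 CG, and Cnot9, a subunit of the CCR4-NOT deadenylase with 30 CG, which face away from each other on chromosome 1. Zbtb26, a zinc finger protein with 24 CG, and Rabgap1, a GTPase-activating protein for Rab GTPases with 23 CG, form another such pair on chromosome 2, in the chain that also holds Rc3h2. These 4 were named after their values were seen. Starts poor in CG inside islands included 8 of olfactory receptors (0 to 3 CG) and a start of Pparg, a nuclear receptor of fat cells and macrophages, with 2 CG.

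Chains were short in bases and dense in islands. The smallest span was 18.4 kb, the median 47.4 kb and the largest 162.6 kb, and the quartiles were 38.2 and 58.6 kb. Together the spans made up 43.9 Mb, or 1.79% of the autosomes, and islands covered 26.1 Mb of them (59.5%). Covered share ran between 31.9 and 87.2% over the chains, with a median of 59.5%. The chains held 13.2% of all bases covered on day 3 and 13.7% of the reads in day 3 islands.

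Most chains sat near the lower limit of the rule. There were 389 chains of 5 islands, 183 of 6, 107 of 7, 60 of 8 and 34 of 9, and 63 chains had 10 to 17 islands. Just outside the rule were 824 chains of 4 islands, with a median span of 30.3 kb and 58.6% covered on day 3, beside 39.6 kb and 57.8% for chains of 5. On day 0, 11.9% of the spans of 5 islands and 10.6% of the spans of 4 islands were covered. At the limit on distance, 177 joins inside chains were 9600 to 10000 bp long, and at 65 of the 1672 chain ends the next island lay 10200 to 10600 bp away.

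The rule limits the distances inside chains to 10 kb, so their lengths beside those of the islands are a description only. The distances had a median of 3.20 kb, with quartiles of 1.20 and 6.20 kb. Chain islands had a median length of 4000 bp, with quartiles of 2800 and 6000 bp. The shortest distance was 800 bp and made up 600 of the 4498 distances (13.3%). In 12 of the 836 chains a single island made up over 50% of the covered bases, so nearly all chains shared their coverage among several islands. The longest island of a chain had a median length of 7.80 kb and reached 33.8 kb at most.

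**Figure D2:**
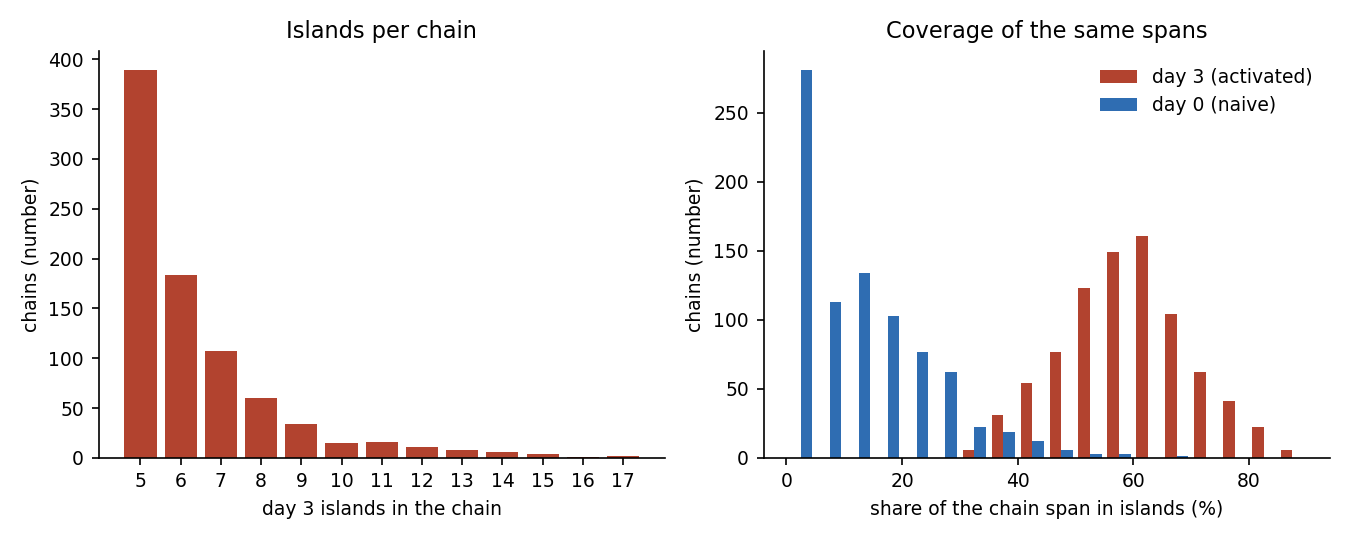
Left, number of chains by the number of day 3 islands they hold. Right, number of chains by the share of their span (%) covered by islands, in steps of 5 percentage points, on day 3 (median 59.5%) and on day 0 (median 10.9%); 255 chains had no day 0 island and fall in the lowest step.

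Chain islands resembled the other day 3 islands in density and were somewhat longer. Median length was 4000 bp in chains and 3600 bp elsewhere, and 37.0% against 24.2% reached 5000 bp. Median density was 55.2 reads per kb in chains and 52.5 reads per kb elsewhere. Short islands under 2000 bp were about as frequent, at 5.64% of chain islands and 5.91% of the others. The 1672 islands at the ends of chains were like the 3662 inner ones, with medians of 4000 bp in both and of 55 and 55.3 reads per kb. Chains were thus not made of many short pieces, and their ends were not thinner than their middle.

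In naive cells the same spans already had more island coverage than the genome around them. Day 0 islands covered 13.0% of the span bases, against 4.08% of the autosomes, a ratio of 3.19. Flanks of 1 span length on each side (81.6 Mb in all) were covered over 8.20% on day 0, a value between those of the spans and the autosomes. For day 3, which the rule used, the shares were 59.5% of the spans, 13.9% of the flanks and 8.07% of the autosomes. Day 3 coverage was 4.56 times day 0 coverage in the spans and 1.98 times on all autosomes.

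Single chains varied widely in their naive state. No day 0 island touched 255 chains, or 30.5% (95% Wilson interval 27.5 to 33.7%). There was 1 day 0 island in 268 chains, 2 in 170 chains, and 3 to 8 in 143 chains. The day 0 share of a span had a median of 10.9%, an upper quartile of 19.6% and a maximum of 69.0%. Relative to its own flanks, day 0 coverage was higher in 446 chains, lower in 285 and equal in 105. In 1 chain, at Ncoa7, day 0 covered more bases than day 3.

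Within the spans, day 0 islands lay more often at the places of day 3 islands than between them. On day 0, 15.7% of the bases of chain islands were covered, against 9.10% of the bases between chain islands. The share in the other day 3 islands was 9.96%. Coverage was higher inside islands in 405 chains and higher between islands in 175. Of the chain islands 23% were overlapped by a day 0 island over at least 1 bp (1229 of 5334, 95% Wilson interval 21.9 to 24.2%), against 13.8% of the other day 3 islands (interval 13.5 to 14.2%) and 14.9% of all. With at least 50% of the island overlapped, the shares were 14.6% in chains, 9.67% elsewhere and 10.2% of all.

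Day 0 coverage was higher just inside the chain borders than just outside them. Each border is by the rule the edge of a day 3 island, so this sets mostly island bases against bases free of day 3 islands. Day 0 islands covered 15.7% of the bases of chain islands and 9.10% of the bases between them, beside 8.20% of the flanks. Day 0 islands covered 12.9% of the first 10 kb inside the border, against 7.76% of the 10 kb outside it and 8.37% of the bases 100 to 50 kb outside it. On day 3 the 10 kb outside had no island, as the rule requires, and 19.2% of the bases 100 to 50 kb outside were covered. These shares at a distance were 2.37 times the autosomal coverage on day 3 and 2.05 times that on day 0.

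**Figure D3:**
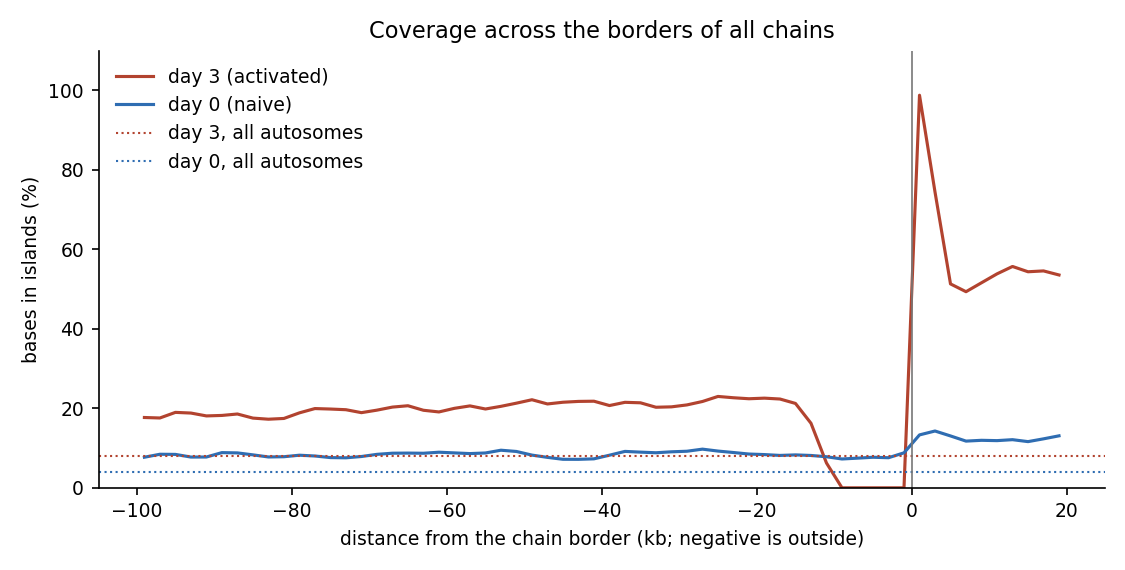
Share of bases in islands (%) in steps of 2 kb by distance from the chain border (kb, negative outside), averaged over both borders of the 836 chains, on day 3 and on day 0; dotted lines give the share over all autosomes, 8.07% on day 3 and 4.08% on day 0. Day 0 coverage is 8.81% in the last 2 kb outside and 13.3% in the first 2 kb inside. Day 3 coverage is 0 within 10 kb outside by the rule, and 98.8% in the first 2 kb inside, since each border is the edge of a day 3 island.

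Longer chains had more of their span covered on day 0. The day 0 share was 11.9% in chains of 5 islands, 12.1% in chains of 6, 12.4% in chains of 7, 15% in chains of 8 or 9 and 15.4% in chains of 10 to 17. The share of chains with no day 0 island was 36.5%, 36.1%, 25.2%, 17% and 6.35% in the same order, and the median span grew with it, between 39.6 kb and 101.6 kb. A longer span has more room for a day 0 island. Over the same groups, the share of span bases inside protein-coding genes was 62.3%, 63.8%, 71.9%, 71.0% and 76.0%.

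Most chains lay in genes, and often in a single long gene. Protein-coding gene bodies made up 67.4% of the span bases, against 52.8% of the flanks and 40.0% of the autosomes. Of the chain islands 67.7% touched a protein-coding gene body, against 43.0% of the other day 3 islands and 45.7% of all. A protein-coding gene was touched by 625 chains, 380 chains (45.5%, 95% Wilson interval 42.1 to 48.8%) lay wholly within 1 such gene, 42 touched only lncRNA genes among these classes, and 142 (17%) touched no annotated gene of any kind. Exons and introns were not analysed here, because the gene table gives only the outer ends of each gene.

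Chains outside protein-coding genes had less naive coverage. Chains within 1 gene were covered over 60.6% on day 3 and 14.1% on day 0, and those that touch no protein-coding gene over 55.4% on day 3 and 8.96% on day 0. No day 0 island touched 28.2% of the chains within a gene and 42.2% of those that touch none. Read density differed little, at 55.2 reads per kb of island within a gene and 53.7 reads per kb outside.

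The genes that touch a chain were long. There were 644 protein-coding genes of 20665 (3.12%) and 126 lncRNA genes of 12408 (1.02%) with at least 1 base in a span. Median gene length was 93.4 kb for the protein-coding genes in a span and 17.5 kb for all. Among genes over 100 kb, 307 of 2313 touched a chain (13.3%), against 1.84% of shorter genes. A long gene has more room for a chain, and the lengths are given as a description. A day 0 island lay somewhere in the body of 78.9% of the chain genes, against 24.0% of all protein-coding genes, and the same holds for this share. A span enclosed 97 genes from end to end.

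Zcchc7, an RNA-binding zinc knuckle protein, held a run of 17 islands (chr4:44771201-44923200), and no chain held more. They spanned 152.0 kb inside the gene, covered 66.7% of the span on day 3 and held 5831 reads. These islands were between 1.40 and 15.2 kb long and between 50.3 and 78.7 reads per kb. On day 0, 4 islands covered 15.1% of the span, and the first of them began 48 kb from the first base of the chain. Nipbl, which loads cohesin onto chromosomes, had 16 islands in 127.6 kb (chr15:8331001-8458600). These covered 60.2% on day 3, and 1 day 0 island of 2.60 kb covered 2.04%. With the full day 3 list, the Zcchc7 and Nipbl chains thus differed less in covered share on day 3 than on day 0. Stag1, a cohesin subunit, carried 2 chains of 11 and 12 islands, and day 3 islands covered 41.8% of its body and day 0 islands 21.5%. With the day 3 list cut to its 19984 islands of most reads, as many as the day 0 list holds, no chain overlapped the span of Nipbl. A chain still overlapped that of Zcchc7.

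Of the other chains with the most islands, 4 lay within single genes. Rfx3, a transcription factor of ciliated cells, held the widest span of all (14 islands in 162.6 kb, 63.0% covered on day 3 and 22.5% on day 0), but no chain overlapped it with the reduced day 3 list. Adamts6, a secreted metalloprotease, held 14 islands in 151.8 kb, with 69.7% covered on day 3 and 21.3% on day 0. Trps1, a GATA-type repressor, held 14 islands in 141.8 kb, with 59.8% covered on day 3 and 6.91% on day 0. Arhgap15, a GTPase-activating protein of blood cells, held 15 islands in 132.8 kb, with 69.9% covered on day 3 and 7.68% on day 0. Day 3 coverage of these 4 spans ran between 59.8 and 69.9%, and day 0 coverage between 6.91 and 22.5%.

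The chain over Spata5, an AAA ATPase, also took in Nudt6, a nudix hydrolase, and 1 end of Fgf2, a fibroblast growth factor that Nudt6 overlaps (chr3:37395601-37545400). It held 15 islands that covered 66.5% of 149.8 kb on day 3, and 6 day 0 islands covered 29.0%. The starts of Nudt6 and Spata5, each with 28 CG, both lay between islands. A chain around Fam174a on chromosome 1 held 15 islands in 127.0 kb, but the gene made up 17.1% of the span, and day 0 coverage was 3.31%. The remaining long chain (chr2:9313201-9469600) touched no protein-coding gene and held the lncRNA gene Gm13219, with 62.3% covered on day 3 and 1.41% on day 0. The nearest protein-coding gene on its far side was Gata3, a T cell transcription factor, 387.5 kb away.

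**Figure D4:**
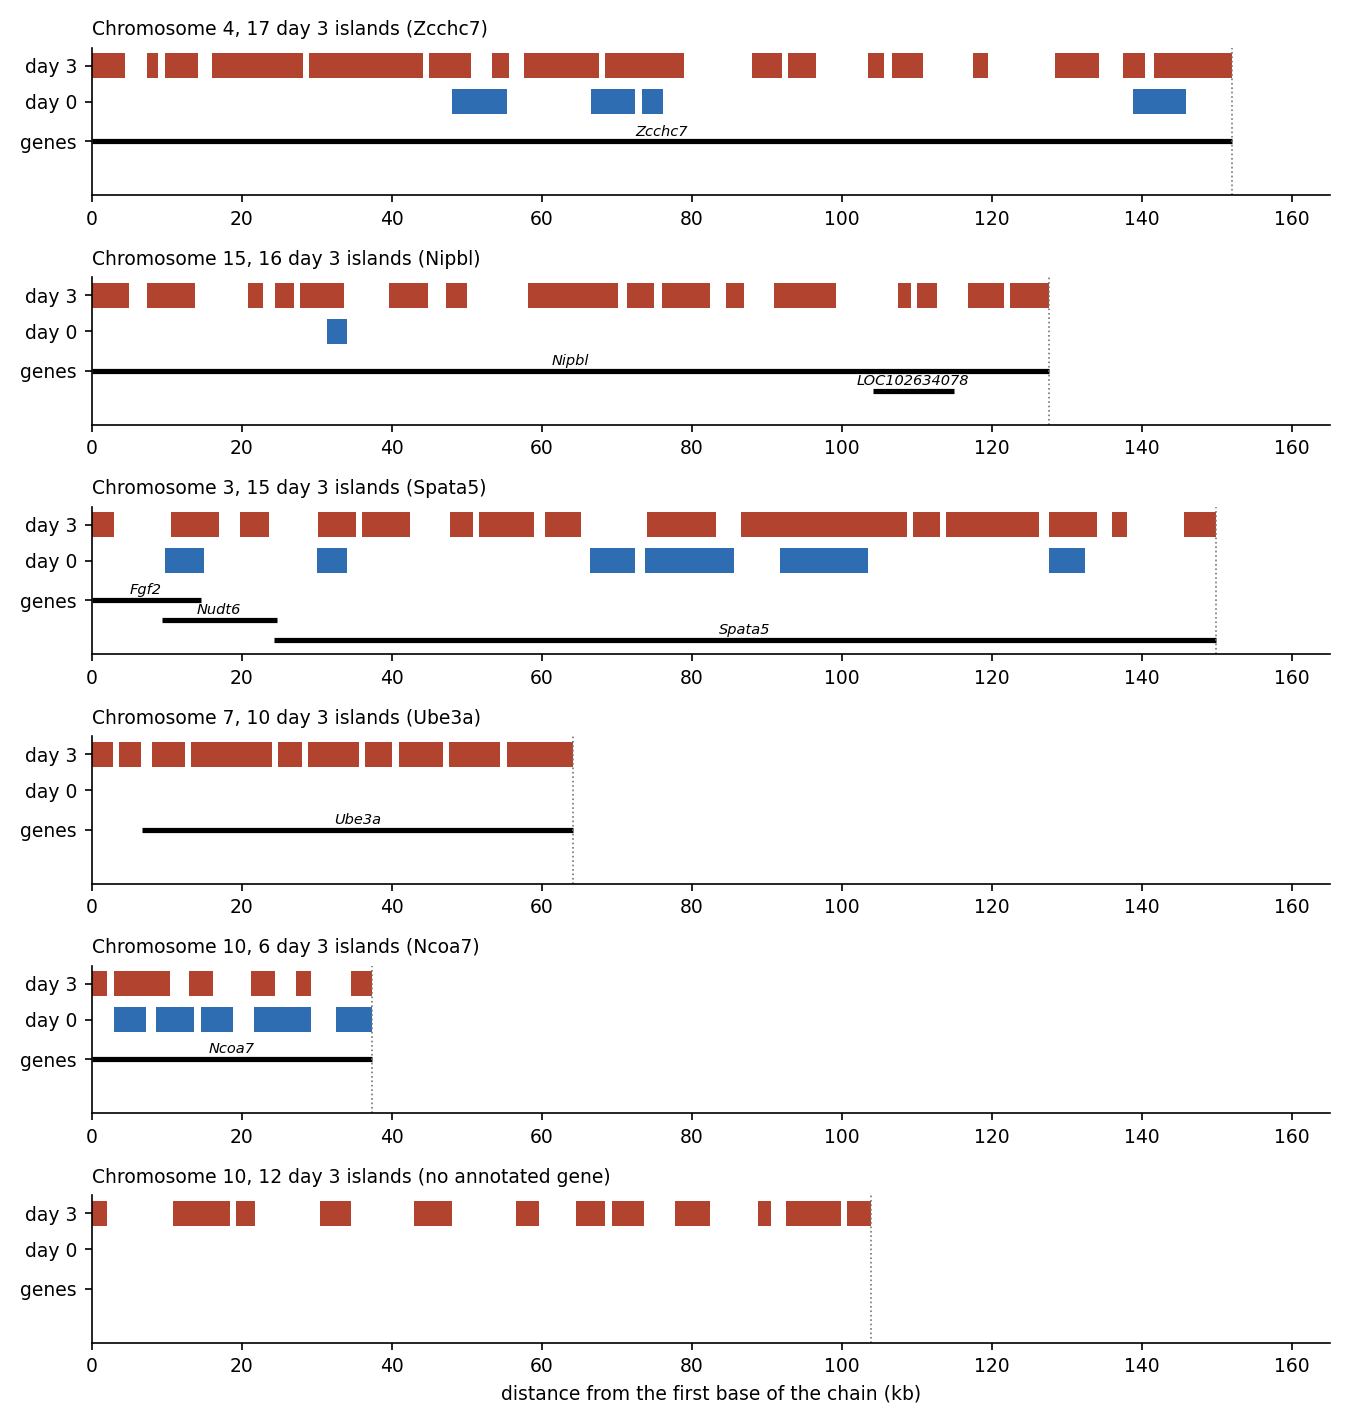
Maps of 6 chains, with day 3 islands, day 0 islands and gene bodies by distance from the first base of the chain (kb); overlapping genes are drawn on separate lines and lncRNA genes are left out. Day 3 islands fill 66.7% of the Zcchc7 chain, 60.2% of the Nipbl chain, 66.5% of the Spata5 chain, 87.2% of the Ube3a chain, 55.1% of the Ncoa7 chain and 47.4% of the chain on chromosome 10 with no gene; day 0 islands fill 15.1%, 2.04%, 29.0%, 0, 69.0% and 0 of the same spans.

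The most fully covered chain was that of Ube3a (chr7:59222001-59286200). Its 10 islands covered 87.2% of 64.2 kb, the largest distance between islands was the 1.40 kb at the gene start, and no day 0 island touched the span. In the rest of this group the naive state differed. A chain of 5 islands in Rabgap1l that reaches Gpr52, an orphan receptor, was covered over 87.1% on day 3 and 49.7% on day 0. One in Ccdc88a, which encodes the actin-binding protein girdin, was covered over 86.3% on day 3 and 51.6% on day 0. A chain in Arhgap15 (86.1% on day 3 and 15.6% on day 0) and one with no gene, 40.2 kb before Calcrl on chromosome 2 (87.0% on day 3 and 25.1% on day 0), lay between these. With the reduced day 3 list a chain overlapped the Ube3a span and none of these other 4.

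The 5 chains with the highest naive coverage all touched protein-coding genes, and those of Ncoa7, Dhx15 and Rev3l lay wholly within 1 such gene. Ncoa7, a nuclear receptor coactivator, had 5 day 0 islands over 69.0% of its 37.4 kb span, against 6 day 3 islands over 55.1%. These day 0 islands held 32.2 to 37.9 reads per kb, and the day 3 islands of the span held 48.2 to 67.5. Day 0 coverage was 58.8% in the chain of Dhx15, a splicing helicase, 57.0% in that of Ercc6l2, a DNA repair protein, 56.5% in that of Rev3l, the catalytic subunit of a translesion DNA polymerase, and 53.2% in that of Trpc1 and Pls1, an ion channel and an actin bundler. On day 3 these 4 spans were covered over 64.1%, 77.5%, 69.2% and 75.5%. Of the 5 spans, that of Ercc6l2 was overlapped by a chain with the reduced day 3 list, and those of Ncoa7, Dhx15, Rev3l and Trpc1 with Pls1 were not.

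The longest chains without any day 0 island were mostly outside protein-coding genes. The longest lay on chromosome 10 (chr10:37747601-37851400) with 12 islands in 103.8 kb, 47.4% covered on day 3, and the nearest protein-coding gene, Marcks, was 608.7 kb away. A pair of others on chromosome 15 lay 149.7 kb from Spef2 (9 islands, 47.3% covered on day 3) and 706.8 kb from Trps1 (12 islands, 59.4% covered on day 3). Lrp12, an LDL receptor relative, made up part of another (9 islands, 50.4% covered on day 3). A chain of 7 islands in the immunoglobulin heavy chain locus (chr12:114355801-114436400) held 6 variable segments and was covered over 64.8% on day 3. With the reduced day 3 list no chain overlapped the span on chromosome 10, the one near Spef2 or the one that touches Lrp12.

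Several genes held more than 1 chain. There were 8 protein-coding genes with 4 chains, 11 with 3 and 60 with 2. The gene with the most bases in spans was Tbc1d5, a regulator of Rab7 and the retromer, with 4 chains over 60.7% of its 448.1 kb body. Day 3 islands covered 226.2 kb of it and day 0 islands 52.2 kb. Zbtb20, a zinc finger repressor, had 4 chains, with 258.8 kb of its body in day 3 islands and 63.6 kb in day 0 islands. Edil3, an integrin-binding matrix protein, had 4 chains, with 208.4 kb in day 3 islands and 56.8 kb in day 0 islands.

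Genes of signalling and protein trafficking were among these. Lrba, whose human form keeps CTLA-4 from degradation, had 4 chains, with 249.9 kb in day 3 islands and 86.0 kb in day 0 islands. Inpp4b, a phosphatase of phosphoinositide signalling, had 4 chains, with 259.4 kb in day 3 islands and 32.0 kb in day 0 islands. Ptprk, a receptor tyrosine phosphatase, had 4 chains, with 178.4 kb in day 3 islands and 77.4 kb in day 0 islands. Day 0 coverage of the same gene body thus ranged between 4.04% in Inpp4b and 15.4% in Lrba among these 3. Gphn, a scaffold of inhibitory synapses, had 3 chains, of which 1 had no day 0 island and another was covered over 33.3% on day 0. All 4 chains of Sgcz, a sarcoglycan gene, lacked day 0 islands, and none was left with the reduced day 3 list.

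Other genes lay inside a single chain from end to end. There were 31 such genes with bodies of at least 20 kb, and day 3 islands covered between 39.6% and 86.0% of the body and day 0 islands between 0 and 44.6%. In 9 of the 31 no base lay in a day 0 island. The 10 longest of them are given here. Tsc22d2, a TSC22 family gene, was covered over 86.0% on day 3 and 31.1% on day 0. Arhgap5, a GTPase-activating protein, was covered over 81.8% on day 3 and 26.7% on day 0. St8sia4, a polysialyltransferase, was covered over 71.8% on day 3 and 2.65% on day 0, and Uba6, a ubiquitin-activating enzyme, over 67.9% on day 3 and 23.7% on day 0. Serpini1, an inhibitor of serine proteases, was covered over 61.9% on day 3 and 9.41% on day 0. Spag6, a protein of sperm tails, was covered over 48% on day 3 and 31.5% on day 0. Rc3h2 had 66.9% of its body in day 3 islands and 7.10% in day 0 islands. Gopc, Herpud2 and Dmtf1, of Golgi sorting, endoplasmic reticulum and cell cycle function, had 44.3%, 46.0% and 44.1% in day 3 islands and 7.93%, 11.4% and 19.6% in day 0 islands. Of these 10, St8sia4 and Arhgap5 touched a chain with the reduced day 3 list and the others did not.

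Gene lists of T cell biology had 6 of 81 genes in a chain (7.41%), beside 3.12% of all protein-coding genes. None of 21 naive and memory genes, 2 of 24 effector genes, 1 of 14 inhibitory receptor and exhaustion genes and 3 of 22 T cell receptor signalling genes had a base in a span. With the reduced day 3 list 1 of the 81 did (1.23%), beside 0.537% of all protein-coding genes. This was Arhgap15, a signalling list member with a body of 647.2 kb. Median gene length was 36.9, 9.79, 27.9 and 77.8 kb in these lists, in the same order, against 17.5 kb for all protein-coding genes. In or out of chains, a day 3 island lay in 11, 5, 4 and 10 of their genes, beside 28.7% of all protein-coding genes. A day 0 island lay in 9, 4, 2 and 8 of them, beside 24.0% of all. A long gene has more room for a chain, and the lists were chosen with earlier results of these data known. Il12rb2, a subunit of the interleukin-12 receptor, had 30.6 kb of its body in a chain without day 0 islands. The gene had 18.6 kb in day 3 islands and 5.80 kb in day 0 islands over its whole body. Zeb2, a transcription factor of terminal effector cells, touched a chain over 10.9 kb at 1 end, and its body had 31.7 kb in day 3 islands and 30.4 kb in day 0 islands. Tox, a transcription factor of exhausted cells, held a chain of 29.6 kb, with 87.4 kb of the gene in day 3 islands and 45.6 kb in day 0 islands.

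Among the signalling genes, Arhgap15 is described above. Themis, a regulator of T cell receptor signals in thymocytes, had 38.6 kb in a chain that was covered over 52.3% on day 3 and 17.5% on day 0. Cd247, the zeta chain of the T cell receptor complex, was touched over 3.55 kb at 1 end, all of it in a day 3 island and none in a day 0 island. This stretch also lay in Pou2f1, a gene that overlaps this end of Cd247 and had 119.5 kb of its body in 2 chains. The rest of the Cd247 body had no island on either day. With the same reduced day 3 list, Zeb2 had 19.5 kb in day 3 islands and 30.4 kb in day 0 islands, Themis 24.8 kb in day 3 islands and 26.2 kb in day 0 islands, and neither they nor Il12rb2, Tox or Cd247 touched a chain.

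In the CD4 helper list 1 of 17 genes was in a span, Il23r, a receptor of helper T cells, with 20.8 kb in day 3 islands and no day 0 island. It touched no chain with the reduced day 3 list. None of 12 B cell genes, 14 myeloid genes and 12 NK cell genes was in a span. Of 16 genes of the H3K9 methylation machinery on the autosomes 2 were (12.5%, beside 3.12% of all protein-coding genes), the methyltransferases Ehmt1 (18 kb in day 3 islands and 7.20 kb in day 0 islands) and Setdb2 (18.8 kb in day 3 islands and 4.00 kb in day 0 islands). These values are for the whole gene bodies, and chain spans took in 35.8 kb of Ehmt1 and 4.28 kb of Setdb2. Median gene length in this list was 40.1 kb, against 17.5 kb for all protein-coding genes, and a long gene has more room for a chain. Neither methyltransferase touched a chain with the reduced day 3 list, nor with only the islands at or above their list's median reads per kb. Of a list of 24 very long, mostly neuronal genes 6 were, Magi2, Cntnap2, Dlg2, Sgcz, Nrxn3 and Pcdh9, with 2.40 to 17.5% of their bodies in spans; all 24 carried islands on both days, and their median length was 1121 kb. Of the 6, Dlg2 touched a chain with the reduced day 3 list and the others did not.

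Germline genes gave 3 of 12, beside 3.12% of all protein-coding genes, and none of the 3 touched a chain with the reduced day 3 list. Median gene length in this list was 32.8 kb, against 17.5 kb for all protein-coding genes, so the count is a description only. Mael, which acts in the piRNA pathway, lay wholly in a span, with 14.8 kb in day 3 islands and none in day 0 islands. Sycp1, a protein of the synaptonemal complex, had 2 chains, with 39.3 kb in day 3 islands and 14.2 kb in day 0 islands. Smc1b, the meiotic cohesin subunit, had 34.2 kb in day 3 islands and 19.7 kb in day 0 islands. The CG-rich starts of Mael (24 CG) and Setdb2 (29 CG) lay between islands.

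Among gene families, olfactory receptors had 26 of 1104 genes in a span (2.36%), beside 3.12% of all protein-coding genes, on chromosomes 1, 2, 6, 7, 9, 10 and 19. Of these 26, 10 had no base in a day 3 island and 21 had none in a day 0 island. Over all 1104 olfactory receptors, 176 had a day 3 island and 60 had a day 0 island. Their median length was 0.95 kb, against 17.5 kb for all protein-coding genes, and a short gene has less room to touch a span. The families differ in gene length, so their counts are given as a description. Zfp zinc finger genes had 5 of 388 (1.29%), solute carriers 4 of 362, Serpin genes 2 of 62 (3.23%) and Trim genes 2 of 68 (2.94%). With the reduced day 3 list, 1 olfactory receptor (Olfr827), 1 Zfp gene (Zfp638) and 1 Serpin gene (Serpine3) touched a chain, and no solute carrier or Trim gene did. The other families had no member in a span: 230 vomeronasal 1 and 122 vomeronasal 2 receptors, 57 clustered protocadherins, 11 Skint genes, 21 Klra, Klrb and Klrc genes, 57 Cyp2 and Cyp3 genes, 22 Ugt genes, 18 Gbp and Ifi20 genes, 8 Slfn genes, 35 bitter taste receptors, 28 Ceacam and Psg genes, 23 cadherins, 14 Slco genes and 58 histone genes. Of the Zfp genes, Zfp638 had the largest chain stretch (57.7 kb, 43.9 kb of the gene in day 3 islands and 6.00 kb in day 0 islands). Slc18a2, a vesicular monoamine transporter, had fewer bases in day 3 islands (6.21 kb) than in day 0 islands (6.81 kb), unlike the other 3 solute carriers in a span.

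Of the microRNA genes, 13 hairpins of 919 on the autosomes lay in the spans (1.41%), which make up 1.79% of the autosomes. There were 9 in a day 3 island, 4 between islands and 0 in a day 0 island. Mature sequences of 5 are shown as examples of both placements: a neighbouring pair and a single miRNA inside islands, and a neighbouring pair with a shared seed between them. They are from the RefSeq tables for GRCm38.p6, 5′ to 3′, with the seed (bases 2 to 8) in capitals.
mmu-miR-99a-5p: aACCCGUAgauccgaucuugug
mmu-let-7c-5p: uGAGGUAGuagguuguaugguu
mmu-miR-34b-3p: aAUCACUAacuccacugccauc
mmu-miR-34c-3p: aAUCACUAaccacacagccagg
mmu-miR-350-3p: uUCACAAAgcccauacacuuuc
The genes of miR-99a and let-7c, a member of the let-7 family that restrains growth genes, lay in a single 8.20 kb island with 416 reads on chromosome 16, inside the lncRNA gene Mir99ahg. That chain held 9 islands in 61.0 kb, with 55.4% covered on day 3 and no day 0 island. The genes of miR-34b and miR-34c, which p53 activates, lay between islands on chromosome 9, and their 3p forms share the seed AUCACUA. That chain had 73.8% covered on day 3 and 26.6% on day 0. The gene of miR-350 lay in a 2.20 kb island with 153 reads on chromosome 1.

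Chains were unevenly spread over the chromosomes. There were 34.0 chains per 100 Mb in all, and the value ran between 19 on chromosome 17 and 56.0 on chromosome 2, which held 102 chains. The share of day 3 islands inside chains ran between 7.10% on chromosome 18 and 15.7% on chromosome 15. Day 3 coverage of the spans varied little, between 56.1% on chromosome 10 and 62.1% on chromosome 2. Day 0 coverage of the spans varied more, between 7.36% on chromosome 16 and 18% on chromosome 11.

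**Figure D5:**
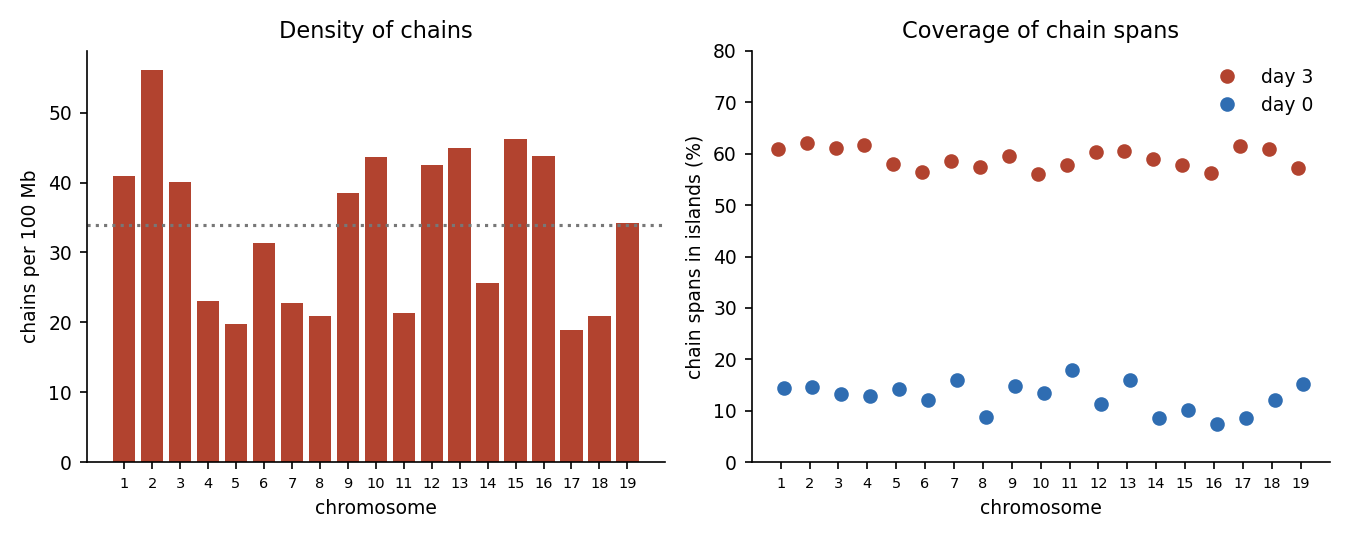
Left, chains per 100 Mb on each autosome, with the value over all autosomes (34.0) as a dotted line. Right, share of the chain spans in islands (%) on each autosome, on day 3 (56.1 to 62.1%) and on day 0 (7.36 to 18%).

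Chains were often close to each other. Another chain lay within 1 Mb of 605 chains (72.4%, 95% Wilson interval 69.2 to 75.3%) and within 100 kb of 248 (29.7%), and 572 of 2470 windows of 1 Mb touched a chain. The densest window began at base 89000001 of chromosome 13, with 421.8 kb of spans in a window that holds Edil3, Hapln1, Vcan and Xrcc4. Islands covered 35.6% of it on day 3 and 12.4% on day 0. The next began at base 16000001 of chromosome 10 and held 387.2 kb of spans in 7 chains, but no protein-coding gene. It was covered over 33.4% on day 3 and 13.4% on day 0, with Cited2, a transcriptional coregulator, 723.2 kb beyond it. A window on chromosome 1 with St8sia4 and Fam174a, from base 95000001, was covered over 38.5% on day 3 and 5.84% on day 0.

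Naive cells had few chains by the same rule. The day 3 list gave 836 chains and the day 0 list 36, with 197 of 19984 day 0 islands (0.986%), and a list with fewer islands forms fewer chains. At equal list lengths the day 3 list gave 119 chains with 728 of its 19984 islands (3.64%), beside the 36 chains of day 0. At most 8 islands formed a day 0 chain, in Ikzf2, which encodes the Ikaros family member Helios, where 22.2% of the span was covered on day 3 and 55.7% on day 0. Of the day 3 chains 10 touched a day 0 chain (1.20%), and 9 of the 36 day 0 chains (25%) touched a day 3 chain. The spans of the day 0 chains were covered over 33.1% on day 3 and 62.1% on day 0. Other day 0 chains lay in Slc40a1, the iron exporter (3.8% covered on day 3 and 55.7% on day 0), and in Cat, which encodes catalase (6.67% covered on day 3 and 61.1% on day 0). Around Cck, the cholecystokinin gene, none of the span was covered on day 3 and 66.5% on day 0. Day 3 coverage was high in others, such as those in Ccdc88a (84.2% on day 3 and 69.9% on day 0) and Homer1 (82.4% on day 3 and 59% on day 0). All day 0 chains named here were picked after their values were seen.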

How the data were processed

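Native ChIP-seq libraries for H3K9me3 were sequenced as paired-end reads of 150 bases, per the labels' protocols. The submitters' processing notes name Bowtie2, SICER version 1.1 and build mm10. Thresholds, gap setting, duplicate handling and use of input: not given in the sources used here. Per deposited island, the authors give 1 unnamed whole number, read here as a raw count of reads and not scaled. Borders lie on steps of 200 bp. Islands were called per library, with 1 library a day.

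Chains, spans, coverage and flanks were computed with Python 3.11.15, pandas 2.3.3 and numpy 2.4.6, and the chain step was tested on simulated islands. Gene bodies, promoters and miRNAs came from RefSeq tables for GRCm38.p6. The length of a chromosome was the last base of any island or gene on it. Overlap needed 1 bp. Intervals are 95% Wilson intervals (scipy 1.17.1) on counts of islands, chains and gene starts. They cover counting error only and treat these units as independent. Islands join chains in runs, and 1 day 0 island can overlap several chain islands, so the intervals can be too narrow. PCR reads without molecular identifiers are not independent molecules, and no interval was computed on reads. Bases of a span are not independent, so covered shares carry no interval.

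Chains were named by most islands (10), highest day 3 share, highest day 0 share and longest span without a day 0 island (5 each). Genes were named by most bases in spans, by highest share of a body of at least 20 kb (10 each, predicted genes left out) and by membership of 30 lists and families. A result that this rule selects is not reported here. Members and lists were chosen with earlier results of these data known. Alternatives changed the distance, the number of islands, the islands kept and the overlap.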

Additional observations from a re-analysis of the deposited data

How the results depend on the processing

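The values in this paragraph are, in order, the number of chains, the share of autosomal day 3 islands in chains, the share of the spans covered on day 3, the share covered on day 0, the ratio of that day 0 share to the autosomes, the share of chain islands overlapped by a day 0 island, and the share of span bases in protein-coding bodies. With distances of at most 5 kb they were 243, 2.95%, 74.2%, 16.9%, 4.14, 28.4% and 74.3%. With at most 20 kb they were 1930, 30.9%, 42.5%, 10.2%, 2.5, 19.6% and 55.6%. With at least 4 islands they were 1660, 18.2%, 59.2%, 12.1%, 2.97, 21.3% and 61.7%, and with at least 8 they were 157, 3.24%, 61.8%, 15.2%, 3.73, 27.6% and 73.5%. With the day 3 list cut to its 19984 islands of most reads they were 119, 3.64%, 68.9%, 18.2%, 4.45, 33.7% and 76.1%. With only the islands at or above their list's median reads per kb they were 218, 5.57%, 62.0%, 9.48%, 5.47, 17.5% and 77.3%. With islands of at least 2000 bp there were 697 chains, with 9.79%, 60.6%, 13.2%, 3.23, 23.2% and 68.5% for the rest. Asking for overlap over 50% of an island or more gave 14.6% overlapped. Many of these changes follow from how the alternative is built, since fewer islands or shorter distances form fewer and denser chains. In each setting, day 0 covered more of the spans than of the autosomes.

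Settings for gene starts were added after the data were seen. Starts between islands made up 62.8% at 5 kb, 81.2% at 20 kb, 72.8% with at least 4 islands, 67.9% with at least 8, 50% of 30 starts with the reduced day 3 list, 72.7% at the density limit and 74.4% at 2000 bp, against 25.8%, 57.5%, 40.8%, 38.2%, 31.1%, 38.0% and 39.4% of the span bases. With the reduced list the 95% Wilson interval was 33.2 to 66.9%, whose lower bound lies close to that setting's 31.1% of bases. Of the 25 chains selected by the naming rule, 11 overlapped a chain with the reduced list and 13 at the density limit. Counts of list genes with the reduced list were also added after the data were seen. Trim23 had 9.48 kb in day 3 islands and 9.0 kb in day 0 islands with the full lists, and 6.68 kb in day 3 islands and 9.0 kb in day 0 islands with the reduced one. No paired analysis was possible because each day has 1 ChIP library and no result comes from a test. The labels' protocols put both libraries at about 100000000 paired-end reads, and the number mapped was not analysed here, so whether a stretch without an island on day 0, where the list holds 3400431 reads, was missed for depth was not tested.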
